A study of Mus musculus with 7 samples.

Results

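The 8 genes described here are Neurl3, Stk10, Abhd18, Mfsd6, Ppm1e, Enox2, Ppt2 and Pax9. Of 22180 measured genes, they were picked for being among the largest or most consistent differences away from the Lockd locus. The contrast was between cells with a Lockd deletion and control cells. Their differences from that contrast are therefore given as descriptions, with no test. Each of the 8 has a single probeset among those on the array that name a single gene. Probesets that name several genes were not searched for them. Expression was measured in G1E, a mouse erythroid cell line without functional GATA1 that grows as immature precursors. Deletion cells (Lockd deletion, made with CRISPR/Cas9) were profiled on 4 Affymetrix Mouse Gene 2.0 ST arrays and control cells (Lockd WT) on 3. The long non-coding RNA gene Lockd lies beside Cdkn1b, the gene for p27, an inhibitor of cyclin-dependent kinases. Both groups share the G1E background, and the design text calls the samples clones without saying how many clones there were. Clone and genotype cannot be told apart where a group holds few clones. The labels do not say that replicates came from separate cultures, so p-values below reflect only how these samples varied, in part perhaps technically.

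The 8 genes share no pathway in textbook knowledge. Neurl3 encodes a neuralized-type RING ubiquitin ligase, an enzyme that tags proteins with ubiquitin. Stk10 encodes a Ste20-type kinase of blood cells, also called LOK, that phosphorylates the ezrin, radixin and moesin proteins linking membrane to actin. Ppm1e encodes a PP2C-type phosphatase that removes phosphate from PAK and calmodulin-dependent kinases and is best known from neurons. Ppt2 encodes a lysosomal thioesterase and Abhd18 a protein with a predicted alpha/beta hydrolase fold. Mfsd6 encodes a membrane protein of the major facilitator family, and Enox2 a cell surface oxidase with disulfide-thiol exchange activity. Pax9 encodes a paired-box transcription factor of the pharyngeal pouches, teeth and palate.

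The sequence upstream of the transcription start is shown for 4 of them, Neurl3 and Mfsd6 as the largest lower and higher of the 8, Ppm1e as the next largest higher one and Abhd18 as the one that varied least between arrays. Sequences are RefSeq's, build GRCm38.p6, the 250 bases before the start, written 5′ to 3′ on the gene's strand. For Mfsd6, which has several listed starts, the first listed one is shown. Capitals mark matches on either strand to the GATA motif AGATAA, the GC box GGGCGG, the CCAAT box CCAAT, the E-box CACGTG or the AP-1 motif TGANTCA. The windows are chr1:36273426-36273675 (minus strand), chr3:40894009-40894258 (plus strand), chr1:52727359-52727608 (minus strand) and chr11:87358995-87359244 (minus strand).
Neurl3: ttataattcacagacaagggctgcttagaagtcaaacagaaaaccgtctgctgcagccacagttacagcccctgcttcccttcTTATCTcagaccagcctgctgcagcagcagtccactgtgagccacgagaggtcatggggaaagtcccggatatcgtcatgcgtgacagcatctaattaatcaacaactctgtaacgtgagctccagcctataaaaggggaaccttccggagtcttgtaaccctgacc
Abhd18: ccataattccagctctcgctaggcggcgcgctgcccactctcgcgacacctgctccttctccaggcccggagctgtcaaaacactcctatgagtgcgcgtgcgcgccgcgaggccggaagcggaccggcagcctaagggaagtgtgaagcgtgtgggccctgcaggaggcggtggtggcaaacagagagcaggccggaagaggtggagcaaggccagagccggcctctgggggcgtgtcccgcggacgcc
Mfsd6: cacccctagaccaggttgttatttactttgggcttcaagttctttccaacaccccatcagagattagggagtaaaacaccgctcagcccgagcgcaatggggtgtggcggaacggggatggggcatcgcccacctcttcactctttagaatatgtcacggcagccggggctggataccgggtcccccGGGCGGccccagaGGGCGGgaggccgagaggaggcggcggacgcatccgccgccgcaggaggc
Ppm1e: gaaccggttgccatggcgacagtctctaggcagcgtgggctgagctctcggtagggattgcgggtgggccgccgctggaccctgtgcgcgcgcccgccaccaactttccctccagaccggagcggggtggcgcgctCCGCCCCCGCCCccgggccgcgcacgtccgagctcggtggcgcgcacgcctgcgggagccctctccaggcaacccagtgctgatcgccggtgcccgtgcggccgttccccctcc

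The Neurl3 window held 1 GATA motif, read on the opposite strand, and the Mfsd6 and Ppm1e windows held 2 GC boxes each. The Abhd18 window matched none of the 5 motifs. Of all 32851 listed windows of this length, 9.99% held the GATA motif, 32.7% the GC box, 33.8% the CCAAT box, 6.02% the E-box and 6.75% the AP-1 motif. Over all 13 listed windows of the 8 genes, 2 genes matched the GATA motif, 4 the GC box, 3 the CCAAT box and 0 the E-box or the AP-1 motif. These counts are per gene and the shares per window, so they cannot be set side by side. Ppt2 has several listed windows and matched only in those after its first. GC content was 68% upstream of Abhd18, 74.8% upstream of Ppm1e, 63.2% upstream of Mfsd6 and 50.4% upstream of Neurl3, where the median window had 52.4%. These matches describe letters only, and no binding was measured.

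The deletion itself was checked first. Lockd read 5.09, 5.15, 4.17 and 5.15 on the RMA log2 scale on deletion replicates 1 to 4, against 7.89, 8.04 and 7.80 on control replicates 1 to 3. Cdkn1b read 7.89, 8.25, 7.98 and 8.03 on the deletion arrays, against 9.30, 9.17 and 9.06 on the control arrays. In limma with Benjamini-Hochberg adjustment, Lockd and Cdkn1b were the 2 of 23521 probesets to pass an adjusted p of 0.05, or 0.0085% of them. With any 1 control array or deletion replicate 1 or 4 left out, 0 passed, and without deletion replicate 3 Lockd passed but Cdkn1b did not. The erythroid marker list had 14 measured genes of 14, whose mean level lay between 10.63 and 10.72 on deletion arrays and between 10.61 and 10.73 on control arrays. Among them, Gata1, which is disrupted in this line, still read 9.19 to 9.41 on deletion arrays and 9.10 to 9.26 on control arrays, and a probeset signal does not show a working protein. Marker lists of mast cells, megakaryocytes, myeloid, lymphoid, stromal with endothelial, and neuronal cells had 0 of their members past the limma threshold, as did the erythroid list. At an unadjusted p under 0.05, met by 4.61% of all genes, there were 2 of the 14 erythroid genes, 1 lower and 1 higher, and 1 gene each in the mast cell, megakaryocyte, myeloid and stromal lists. The stromal with endothelial list, 8 genes of 8, had a median difference of 0.13, with 7 genes higher and 1 lower in deletion cells. Its means were 5.64 to 5.81 on deletion arrays and 5.41 to 5.77 on control arrays, and its part in the results below was not tested. The mast cell list, with 8 genes measured of 8, spanned means of 5.36 to 5.82 on deletion arrays and 5.25 to 5.92 on control arrays. Its genes differed by -0.70 to 0.14, with 5 lower and 3 higher in deletion cells. Arrays correlated at 0.993 to 0.996, and the first principal component, with 29.9% of the variance, set control replicate 2 apart from the other arrays.

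**Figure D1:**
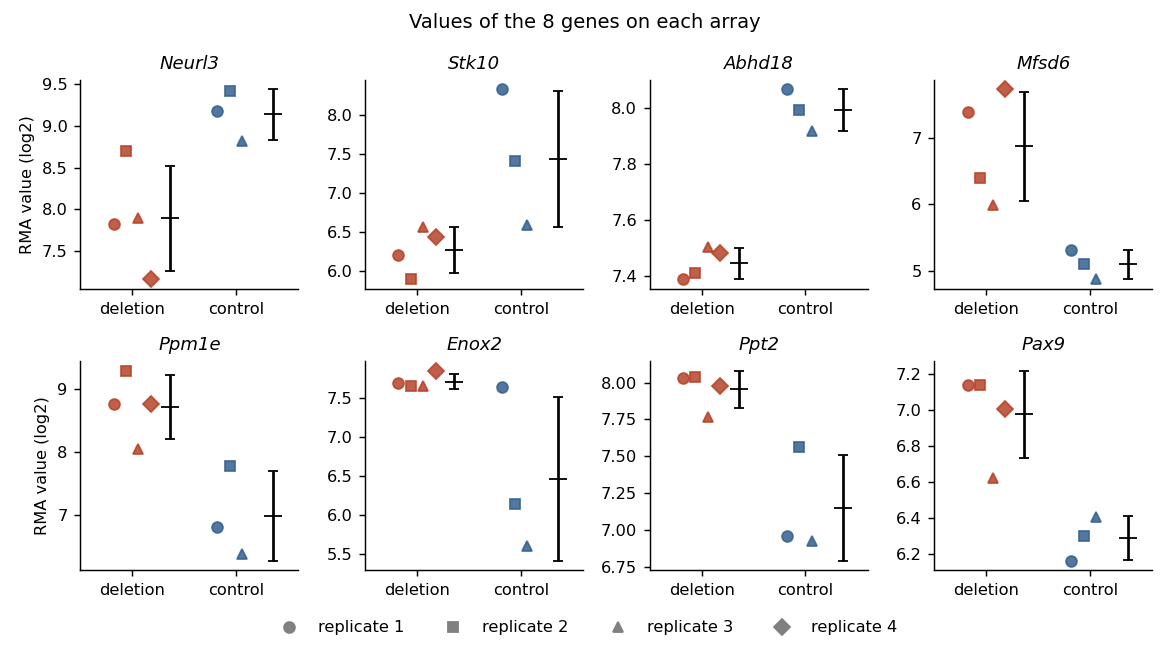
Each panel shows 1 of the 8 genes, with the RMA log2 value of every array as a point (shape gives the replicate number) and the group mean with SD as a bar to its right, deletion arrays (n = 4) left of control arrays (n = 3). The groups lie apart for all 8 genes, by 0.01 for Enox2 and by 0.67 for Mfsd6, and the vertical axes differ between panels.

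Among the signalling enzymes, Neurl3 read 7.82, 8.70, 7.90 and 7.16 on deletion replicates 1 to 4, against 9.18, 9.42 and 8.82 on control replicates 1 to 3. Deletion replicate 2 stood high and came within 0.12 of the lowest control array, but the groups did not overlap. The means were 7.89 ± 0.63 (SD, n = 4) in deletion cells and 9.14 ± 0.30 (SD, n = 3) in control cells, a difference of -1.25 (SE 0.31), or a ratio of 0.421. Each SE of a difference, here and below, is limma's. It takes the same variance for both groups and draws it toward that of all probesets. In RNA from whole cultures, fewer cells with a transcript and less of it per cell cannot be told apart. With deletion replicate 2 left out, the difference was -1.52 and the gap between the groups 0.92.

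The kinase gene Stk10 read 6.21, 5.89, 6.57 and 6.44 on deletion replicates 1 to 4, against 8.34, 7.41 and 6.59 on control replicates 1 to 3. The control arrays were spread over 1.75 log2 units, and control replicate 3 lay 0.02 above the highest deletion array. Means were 6.28 ± 0.30 (SD, n = 4) in deletion cells and 7.45 ± 0.87 (SD, n = 3) in control cells, a difference of -1.17 (SE 0.36). Without control replicate 1 it shrank to -0.72, and without control replicate 3 it was -1.60. The size of the Stk10 difference therefore depended on which control arrays were used. Its SE takes the same spread for both groups, so it understates the uncertainty left by the scattered control arrays.

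Ppm1e, the phosphatase gene, read 8.78, 9.30, 8.05 and 8.77 on deletion replicates 1 to 4, against 6.81, 7.78 and 6.38 on control replicates 1 to 3. Deletion replicate 3 was the low deletion array and control replicate 2 the high control array, and they lay 0.27 apart. Group means were 8.72 ± 0.51 (SD, n = 4) in deletion cells and 6.99 ± 0.72 (SD, n = 3) in control cells. The difference of 1.73 (SE 0.36) corresponds to a 3.33-fold higher value, and it ran from 1.43 without control replicate 3 to 2.13 without control replicate 2.

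Of the genes for surface and membrane proteins, Mfsd6 had the largest difference of the 8. It read 7.39, 6.39, 5.99 and 7.73 on deletion replicates 1 to 4, against 5.32, 5.10 and 4.87 on control replicates 1 to 3. All deletion arrays lay above all control arrays by at least 0.67, and replicates 1 and 4 read higher than replicates 2 and 3. Means were 6.87 ± 0.82 (SD, n = 4) in deletion cells and 5.10 ± 0.22 (SD, n = 3) in control cells, a difference of 1.78 (SE 0.39), or 3.43-fold. The control values lay below the median level of all genes, 5.72, although probesets differ in how brightly they bind and RMA gives no detection call.

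Enox2, the surface oxidase gene on the X chromosome, read 7.69, 7.65, 7.65 and 7.85 on deletion replicates 1 to 4, against 7.63, 6.14 and 5.60 on control replicates 1 to 3. The deletion arrays were within 0.20 of each other, whereas the control arrays spanned 2.03. Control replicate 1 read as high as the deletion arrays, 0.01 below the lowest of them. Means were 7.71 ± 0.10 (SD, n = 4) in deletion cells and 6.46 ± 1.05 (SD, n = 3) in control cells, a difference of 1.25 (SE 0.40). With group SDs this unlike, an SE that takes the same spread for both understates the uncertainty. Without control replicate 1 the difference was 1.84, and without control replicate 3 it was 0.82.

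The hydrolase genes differed less but more evenly. Ppt2 read 8.03, 8.04, 7.77 and 7.98 on deletion replicates 1 to 4, against 6.96, 7.56 and 6.92 on control replicates 1 to 3. The closest arrays of the groups, deletion replicate 3 and control replicate 2, were 0.20 apart. Means were 7.95 ± 0.13 (SD, n = 4) in deletion cells and 7.15 ± 0.36 (SD, n = 3) in control cells, a difference of 0.81 (SE 0.16), or 1.75-fold. Leaving out control replicate 2, the array that stood apart on the first component, gave 1.01 with a gap of 0.81. Without control replicate 3 the difference was 0.69, the smallest with 1 array left out.

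Abhd18 had the smallest difference of the 8 and the least spread. It read 7.39, 7.41, 7.50 and 7.48 on deletion replicates 1 to 4, against 8.07, 7.99 and 7.92 on control replicates 1 to 3. The deletion arrays lay within 0.11 of each other and the control arrays within 0.15, and the groups were 0.42 apart. Means were 7.45 ± 0.06 (SD, n = 4) in deletion cells and 7.99 ± 0.07 (SD, n = 3) in control cells, a difference of -0.55 (SE 0.07), or a ratio of 0.684. With single arrays left out the difference ran from -0.51 to -0.58.

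Pax9, the transcription factor gene, read 7.137, 7.135, 6.624 and 7.004 on deletion replicates 1 to 4, against 6.163, 6.298 and 6.408 on control replicates 1 to 3. Deletion replicate 3 was the low one of its group and lay 0.22 above the highest control array. Its means were 6.98 ± 0.24 (SD, n = 4) in deletion cells and 6.29 ± 0.12 (SD, n = 3) in control cells, a difference of 0.69 (SE 0.13), or 1.61-fold. Without deletion replicate 3 the difference was 0.80 and the gap 0.60. Without control replicate 1 the difference was 0.62, the smallest with 1 array left out.

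**Figure D2:**
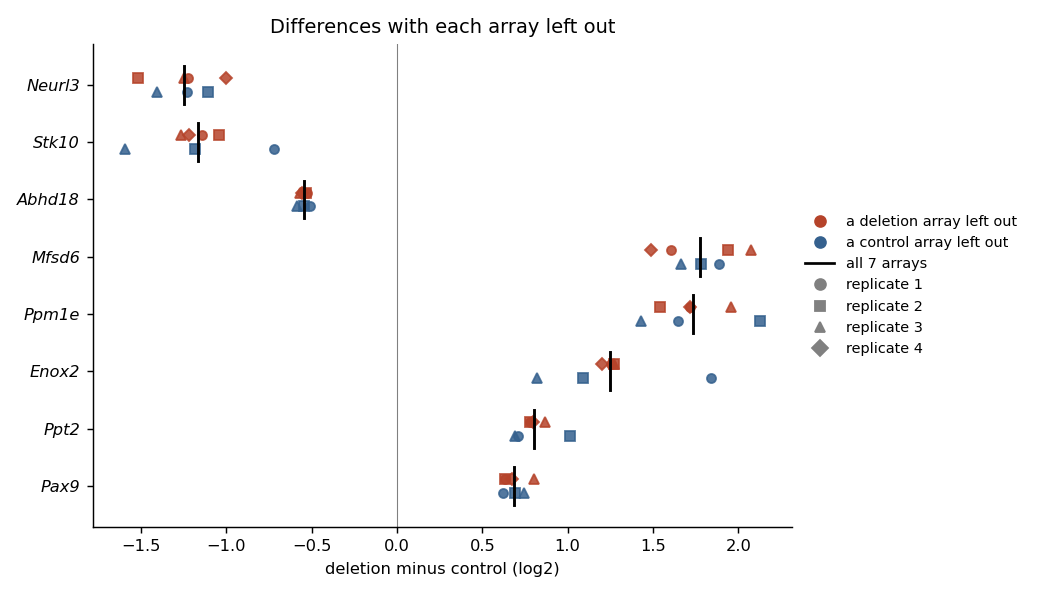
The horizontal axis gives deletion minus control on the log2 scale for each of the 8 genes, with a black bar for all 7 arrays and a point for each fit with 1 array left out, red for a deletion array and blue for a control array. Stk10 and Enox2 move the most, to -0.72 and to 1.84 without control replicate 1, and Abhd18 the least. Enox2 also moves to 0.82 without control replicate 3.

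By the size of the difference among all genes, Mfsd6 ranked 3, Ppm1e 4, Enox2 8, Neurl3 9, Stk10 11, Ppt2 24, Pax9 41 and Abhd18 80. When single arrays were left out, Mfsd6 stayed within ranks 2 to 5 and Ppm1e within ranks 3 to 11. Enox2 ran from rank 3 to 48 and Stk10 from 7 to 43. Neurl3 ran from rank 7 to 20, Ppt2 from 25 to 84, Pax9 from 33 to 78 and Abhd18 from 71 to 154. All 8 genes kept their direction and groups that did not overlap with any single array left out, which the gap over all 7 arrays already fixes. Groups that did not overlap were found for 5.19% of all genes, 2.54% lower and 2.65% higher in deletion cells, so the separation of the 8 describes how they were chosen. A difference of 1 log2 unit or more, which is 2-fold, was reached by 14 genes, or 0.0631%, and by 5 of the 8, and in 6 of the 14 the groups overlapped.

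Values near the edge of the choice were close to those inside it. Among genes whose groups did not overlap, Pax9 at 0.69 was the smallest higher one of the 8, and those of like size not among the 8 were the microRNA gene Mir1970 at 0.75, Wls, a Wnt secretion gene, at 0.68 and the receptor gene Calcrl at 0.68. On the lower side Tph1, a serotonin synthesis gene, at -2.03, Jun at -0.90 and Ccng2 at -0.87 were larger in size than Abhd18 and are not among the 8. Further lower genes outside the 8 were also larger in size than Abhd18. The Tph1 difference was larger in size than that of any of the 8.

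The 8 genes differed among themselves in how much the arrays of a group varied. The within-group SD, pooled over both groups, was 0.53 for Neurl3, 0.60 for Stk10, 0.65 for Mfsd6, 0.60 for Ppm1e and 0.67 for Enox2, where the median gene had 0.13. These 5 genes stood at percentiles 99.4 to 99.7 of all genes in spread. Ppt2 stood at percentile 91.6, Pax9 at 83.2 and Abhd18 at 13.0. A range of 1 log2 unit or more among the deletion arrays was seen in 0.875% of all genes, and in Neurl3, Mfsd6 and Ppm1e among the 8. Among the control arrays it was seen in 1.09% of all genes, and in Stk10, Ppm1e and Enox2. Divided by the within-group SD, the differences came to 8.61 for Abhd18 and to between 1.87 for Enox2 and 3.38 for Pax9 for the rest. The genes were picked for size or consistency, so these ratios describe that choice.

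**Figure D3:**
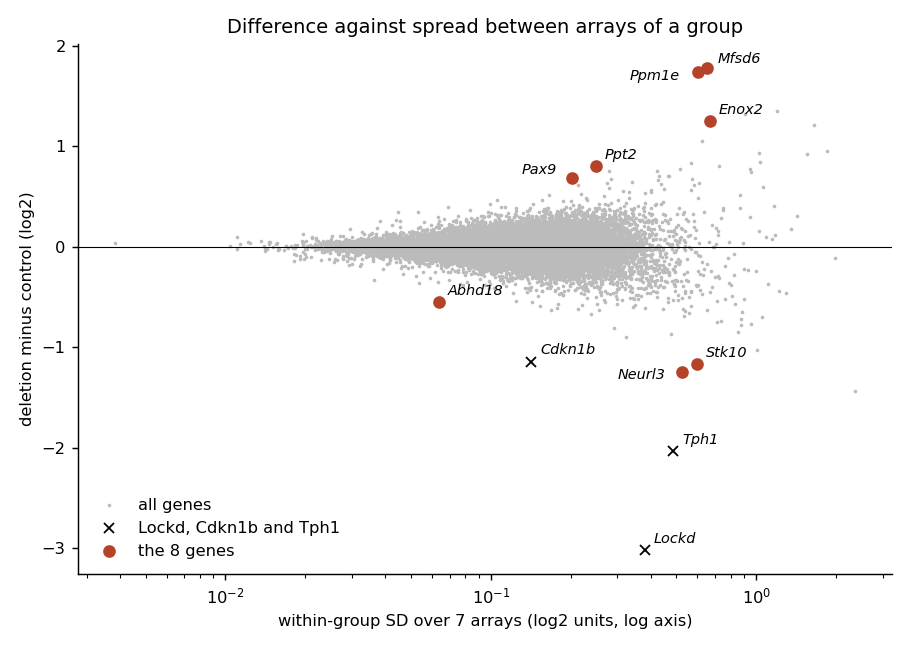
The vertical axis gives deletion minus control on the log2 scale and the horizontal log axis the within-group SD in log2 units, with all genes in grey, the 8 genes as red points and Lockd, Cdkn1b and Tph1 as crosses. Mfsd6, Ppm1e, Enox2, Neurl3 and Stk10 sit at SDs of 0.53 to 0.67, while Abhd18 sits at 0.06.

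The deviations of the 8 genes from their group means followed no order over the arrays that all 8 shared. Over the 28 pairs of genes and the 7 arrays, the correlation of these deviations had a median of 0.07 and ran from -0.81 for Pax9 with Abhd18 to 0.91 for Ppm1e with Ppt2. Ppm1e and Ppt2 were both high on control replicate 2, by 0.79 and 0.42 above the control mean, and both low on deletion replicate 3. Stk10 and Enox2, which differed between the groups in opposite directions, had a correlation of 0.91. Control replicate 1 was the highest control array for both, by 0.89 and 1.17, and control replicate 3 the lowest, with deviations of -0.86 for each. Mfsd6 and Abhd18 also fell from control replicate 1 to 3, while Pax9 rose. Neurl3, Ppm1e and Ppt2 were highest on control replicate 2. Abhd18 had a correlation of 0.89 with Stk10 and of 0.73 with Enox2. These points share the same arrays, and each value rests on 7 of them, fewer of which vary freely once group means are removed. The value for Stk10 with Enox2 rests mostly on the control arrays, since Enox2 deviated by at most 0.14 on deletion arrays.

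**Figure D4:**
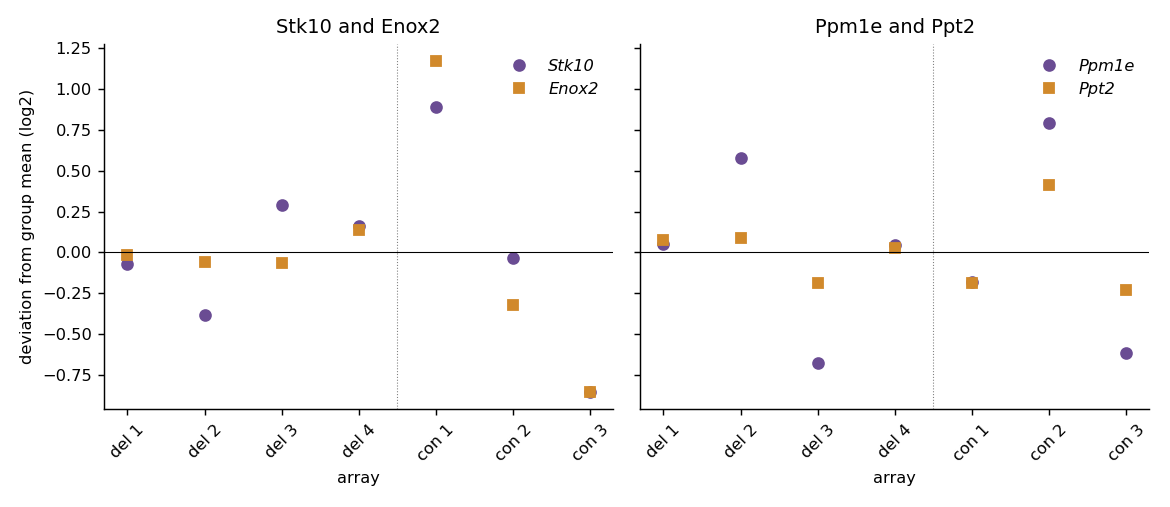
Points give the deviation of each array from its group mean in log2 units, for Stk10 with Enox2 on the left and Ppm1e with Ppt2 on the right, deletion arrays (del) before control arrays (con). Stk10 and Enox2 lie together on the control arrays, at 0.89 and 1.17 on replicate 1 and at -0.86 on replicate 3.

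The genes most like each of the 8 were found by the same correlation of deviations over the 7 arrays. They were C2cd5 (r = 0.994) and Clcn6 for Neurl3, Dnase1l3 (0.992) and Pcsk2os2 for Stk10, and Fbxo33 (0.997) and Mir466b-2 for Abhd18. For Mfsd6 they were Tbc1d7 (0.990) and Thsd1, for Ppm1e Txnip (0.995) and Mir652, and for Enox2 Pram1 (0.992) and Serpina1f. Ppt2 was most like Sfi1 (0.992) and Rnase11, and Pax9 most like Macrod1 (0.994) and Grin2d. With 7 arrays and 19243 genes to choose from, the median gene also had a best match of 0.994, so matches of this size are what any gene gave.

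Genes next to each of the 8 on its chromosome were compared, since the choice of the 8 did not use them. In the gene order of GRCm38.p6, Neurl3 and Mfsd6 lie on chromosome 1, Stk10 and Ppm1e on chromosome 11, Abhd18 on chromosome 3, Ppt2 on chromosome 17, Pax9 on chromosome 12 and Enox2 on the X chromosome, and Lockd on chromosome 6. Of the 48 nearest measured genes, 3 on each side, 0 passed an adjusted p of 0.05 in limma, and 0 had an unadjusted p under 0.05, where 4.61% of all genes did. Without control replicate 2 there were 3, or 6.25%, where 5.15% of all genes did. Their median difference was 0.00, and 24 of the 48 had the sign of the gene they neighbour. The largest was that of Foxa1, a forkhead factor gene beyond Pax9, which read 8.31, 7.45, 6.90 and 7.25 on deletion replicates 1 to 4, against 6.99, 5.28 and 7.84 on control replicates 1 to 3. Those groups overlapped, and its difference of 0.77 (SE 0.56) had a 95% interval of -0.51 to 2.05. Several neighbours had mean levels below the median of all genes, 5.72, where a change may not be seen. Beside Enox2 these were Fsip2l (3.53), Gpr119 (4.03), Olfr1320 (3.36), Olfr1321 (3.48) and Igsf1 (4.14), while Rbmx2 was at 8.79.

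Some neighbours overlap the genes themselves, and the strand of probes was not examined. Trim37 overlaps Ppm1e and differed by -0.01 (SE 0.07), and Prrt1 overlaps Ppt2 and differed by 0.08 (SE 0.08). Egfl8, the next gene on the other side of Ppt2, differed by 0.16 (SE 0.08). Slc25a21, a mitochondrial carrier gene that overlaps Pax9, averaged 10.98 ± 0.11 (SD, n = 4) in deletion cells and 10.88 ± 0.18 (SD, n = 3) in control cells. Nkx2-9 and Nkx2-1, homeobox genes on the other side of Pax9, differed by 0.01 and 0.08. Abhd18 overlaps 6430590A07Rik, at -0.18 (SE 0.10), and 1700034I23Rik, at -0.13 (SE 0.10). Around Neurl3 the differences of Uggt1, Hs6st1, Plekhb2, Arid5a, Kansl3 and Lman2l ran from -0.10 to 0.07. Around Stk10 those of Efcab9, Ubtd2, Sh3pxd2b, Fbxw11, Smim23 and Fgf18 ran from -0.15 to 0.09, and the 6 around Mfsd6 from -0.10 to 0.12.

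**Figure D5:**
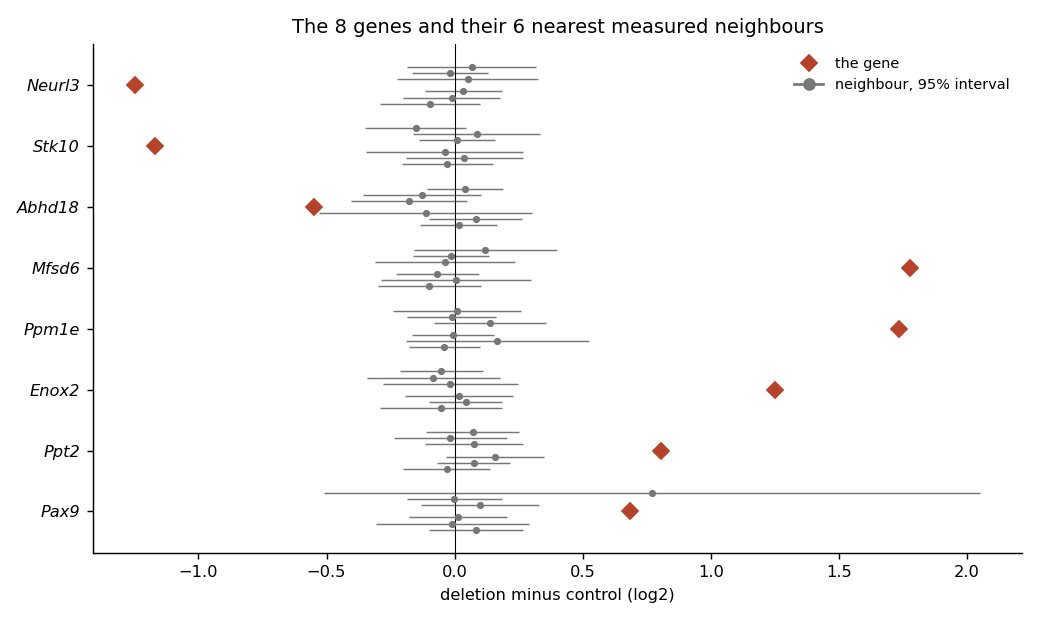
Red diamonds give deletion minus control on the log2 scale for each of the 8 genes and grey points its 6 nearest measured neighbours with 95% limma intervals. The neighbours lie around 0 with the exception of Foxa1 beside Pax9, at 0.77 with an interval of -0.51 to 2.05.

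Relatives and known partners of the 8 were grouped in 9 lists by family. Of 155 distinct genes measured, 0 passed an adjusted p of 0.05 in limma, and 2 had an unadjusted p under 0.05, or 1.29%, where 4.61% of all genes did. This count depended on the control arrays, with 8, or 5.16%, without control replicate 3, where 7.14% of all genes did, and 5, or 3.23%, without control replicate 1, where 4.79% did. Their median difference was 0.01, beside 0.01 for all genes. The closest relatives below were picked for kinship after values were seen.

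Partners of the signalling enzymes gave small values. Of 15 neuralized, Notch and Notch ligand genes 0 passed, with a median of 0.04, led by the ubiquitin ligase gene Mib2 at 0.11 (SE 0.07) and the ligand gene Dll1 at 0.11 (SE 0.09). Neurl1a and Neurl4, relatives of Neurl3, differed by 0.04 and -0.06. Of 18 measured Ste20 kinase, Plk1 and ezrin-radixin-moesin genes 0 passed, with a median of 0.00, and the smallest p values were those of Tnik at 0.14 (SE 0.11) and Map4k1 at -0.13 (SE 0.11). Slk, the closest relative of Stk10, differed by 0.03 (SE 0.06). Its substrates' genes differed by 0.07 (Ezr), 0.00 (Rdx) and 0.00 (Msn).

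In the PP2C phosphatase list 0 of 18 genes passed, with a median of 0.01. Pdp1, a pyruvate dehydrogenase phosphatase gene, differed by 0.16 (SE 0.09) and Ppm1l by 0.63 (SE 0.36). The Ppm1l probeset read 7.37, 7.66, 7.82 and 7.07 on deletion replicates 1 to 4, against 7.17, 5.85 and 7.51 on control replicates 1 to 3. Its groups overlapped and control replicate 2 was far below the rest. Ppm1f, the phosphatase gene most like Ppm1e, differed by 0.02 (SE 0.09). Of 21 measured PAK, PIX, calmodulin-dependent kinase and AMPK genes 0 passed, with a median of -0.01. Pak4, a PAK-family kinase gene, at -0.21 (SE 0.08) had a limma p of 0.0278 before adjustment and 0.999 after it, and Prkaa2, an AMPK subunit gene, differed by -0.10 (SE 0.06).

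The lists around the membrane and hydrolase genes also held 0 genes that passed. Of 21 major facilitator genes 0 passed, with a median of 0.01, and Mfsd9 and Mfsd2a differed by -0.08 (SE 0.07) and 0.11 (SE 0.10). Of 9 plasma membrane redox genes 0 passed, with a median of -0.06, P4hb at -0.12 (SE 0.08) and Cybrd1 at -0.16 (SE 0.13). Enox1, the relative of Enox2, differed by 0.07 (SE 0.08). Of 22 measured depalmitoylation and lysosomal enzyme genes 0 passed, with a median of 0.03. Ppt1, the palmitoyl-protein thioesterase related to Ppt2, averaged 9.81 in deletion cells and 9.70 in control cells, a difference of 0.11 (SE 0.08), and Psap, the prosaposin gene, differed by 0.10 (SE 0.08).

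Of 16 measured Pax and pharyngeal patterning genes 0 passed, with a median of 0.06. Pax1, the closest relative of Pax9, averaged 5.90 ± 0.07 (SD, n = 4) in deletion cells and 5.74 ± 0.10 (SD, n = 3) in control cells. Deletion replicate 3, at 5.833, lay just under control replicate 1, at 5.837, so the groups overlapped. The difference was 0.16 (SE 0.08), with a limma p of 0.0624 before adjustment and 0.999 after it. Hoxa3, at a mean level of 3.78, differed by 0.15 (SE 0.08). Of 19 measured Abhd genes 0 passed, with a median of -0.01. Abhd16b, at 0.23 (SE 0.10), had a limma p of 0.0388 before adjustment and 0.999 after it, and Abhd12 differed by 0.10 (SE 0.06).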

How the data were processed

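RNA of 7 G1E samples, 4 with a Lockd deletion and 3 controls grouped by their titles, was hybridised to Affymetrix Mouse Gene 2.0 ST arrays. The authors deposited log2 values that, per the submitters' processing notes, came from RMA run in the software Affymetrix Expression Console. Software version, library files and genome build: not given in the sources used here. RMA puts arrays on a common distribution, so a shift of all genes would not be seen. That the scale is log2 was taken from the range of the values.

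Of 41345 probesets, 23521 had 1 gene symbol in the platform annotation, 1814 had several and 16010 were not listed. A gene with several probesets was represented by the one with the highest mean, giving 22180 genes. Deletion minus control was fitted with limma 3.58.1 (lmFit, eBayes) in R 4.3.3 on all single-symbol probesets. Tests were two-sided, with Benjamini-Hochberg adjustment, a threshold of 0.05, no level filter and no covariate. The fit was also run on simulated data with independent noise, which does not show how well it finds changes on these arrays. The number of arrays limits the precision. Neighbours were taken by gene order in GRCm38.p6, matched through gene IDs, and only names and order were used. The 8 genes and the lists were chosen with earlier results of these data known. The rule named the 8 genes, Lockd, Cdkn1b, 3 neighbours on each side, the 2 smallest p values of each list, the 2 best matches of each gene, and the 3 largest differences outside the 8 in each direction. Alternatives left out each array, used group medians, centred arrays, filtered dim probesets, tested all probesets, changed the variance prior or added a replicate block.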

Additional observations from a re-analysis of the deposited data

Results flagged for a closer look

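Among the 4 deletion arrays, 6 of 82 genes had 1 array far from the other 3 by Dixon's criterion, which chance alone meets in about 1 of 20 groups. None of the 8 genes was among them. Lockd read 4.17 on deletion replicate 3, where the next array read 5.09. Wls read 6.14 on deletion replicate 3, with the next at 4.76. Hibch, a neighbour of Mfsd6, read 8.69 on deletion replicate 1, with the next at 8.81. Igsf1, a neighbour of Enox2, read 4.01 on deletion replicate 1, with the next at 4.14. Mib2 read 7.71 on deletion replicate 1, with the next at 7.81. Tex14, a neighbour of Ppm1e, read 5.27 on deletion replicate 4, with the next at 5.33.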

How the results depend on the processing

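All 72 values of the 8 differences with each array left out, with group medians or with arrays centred on their medians kept their direction and moved by less than the within-group SD. With single arrays left out, both outcomes were fixed in advance. The gap between the groups fixes the direction, also for medians, and leaving out 1 array cannot move a difference by as much as that SD. Those values are therefore no check of robustness. The replicate block over the titles' numbers 1 to 3 drops deletion replicate 4, and it gave the same 8 differences as leaving that array out. Centring moved the median of all genes by -0.02. No second probeset naming only 1 of the 8 existed to try, and probesets naming several genes were not searched. The differences that moved by over 1.5 times were those of Stk10 to -0.72 without control replicate 1 and of Enox2 to 0.82 without control replicate 3.

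The 2 probesets past the threshold in limma became 0 to 2 with single arrays left out, 0 when any 1 control array or deletion replicate 1 or 4 was left out. Without deletion replicate 3 the 2 were Lockd and Cep126, a gene named after its values were seen, and not Cdkn1b. Testing all probesets of the array gave 0, as did the replicate block over numbers 1 to 3, which also drops deletion replicate 4. Leaving out that array alone gave 0 too. Arrays with the same number in the titles had correlations of deviations of 0.02, 0.06 and -0.10, so the numbers were not taken as pairs. The sample descriptions number the deletion samples differently, and the arrays that share a number there, control replicate 2 with deletion replicate 1 and control replicate 3 with deletion replicate 2, had correlations of -0.17 and -0.10. The family genes and the neighbours stayed at 0 past the threshold in each alternative run for them. At an unadjusted p under 0.05, the family genes ran from 1 to 8 and the neighbours from 0 to 3, while the share of all genes ran from 3.63% to 7.14% with single arrays left out. With 5 neighbours on each side, 2 of 80 had such a p. With 4 and 3 arrays, changes smaller than the intervals given are not detectable. The intervals are not adjusted for the number of probesets, so larger changes can miss the threshold too. Tph1 at -2.03 had an adjusted p of 0.516 in limma.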
